A study of Homo sapiens with 8 samples.

Results

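The 32 transcripts of *CIC*, *ERF*, *ETV3*, *ATXN1* and *ATXN1L* were followed by RNA-seq in PNT2, a line of human prostate epithelial cells made immortal in culture. They were chosen by gene: every transcript of the 5 genes that the deposited tables list was taken, 32 of 180253 in all, 9 of *CIC*, 7 of *ERF*, 3 of *ETV3*, 10 of *ATXN1* and 3 of *ATXN1L*. The 8 libraries form 4 groups of 2 (replicates A and B), which carry the genotypes WT, ERF KD, CIC KO and CIC-ERF codeletion. All 8 come from the same parental line. Per the study's methods, *ERF* was silenced with short hairpin RNA and Cas9 with a guide RNA was used to disrupt *CIC* in drug-selected cells, and the codeletion group received both. The methods name 2 hairpins and 2 guides, and double lines with the same hairpin and either guide. Neither the labels nor the methods tie A and B to these constructs or say whether they are separate cultures. The p-values therefore measure the spread between these libraries, which may be technical. Libraries with the same letter deviated together (r between 0.242 and 0.493 over genes). The main fit does not use the letter, and some calls change when it serves as a block.

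The single-loss labels are in doubt. The names of these 4 tables carry the opposite letters to their labels, and both CIC KO libraries held little *ERF* mRNA while both ERF KD libraries did not. Each group is named by its label here, with the word labelled before it. Library totals ran from 19477473 to 25813157 estimated counts. The epithelial keratins *KRT8*, *KRT18* and *KRT19* ranged from 405 to 1620 TPM (a level corrected for transcript length and library size) over the libraries, whereas *KLK3*, a gene of luminal prostate cells, was at 0 TPM in all 8. The labelled ERF KD libraries stood apart: 6 epithelial markers summed to between 1648 and 2020 TPM there and to between 3719 and 4573 TPM in the other 6 libraries. The part of this difference in the results below was not tested.

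CIC is a DNA-binding repressor with a high-mobility group box that keeps *ETV1*, *ETV4*, *ETV5* and feedback inhibitors of MAPK signalling silent, and growth factor signals through this pathway relieve the repression. ATXN1 and ATXN1L are related proteins that bind CIC, stabilize it and take part in its repressor complex. ERF and its paralog ETV3 carry an ETS domain and repress genes with ETS sites, and phosphorylation by the same pathway sends ERF out of the nucleus. CIC is made in a long and a short form that start from different promoters. In GENCODE 29 (GRCh38), *ERF* (minus strand) and *CIC* (plus strand) point away from each other on chromosome 19, with 13380 bases between the start of ERF-201 and that of CIC-204.

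The sequences in which the forms differ show what the transcript values below can tell apart. They are from GENCODE 29, written 5′ to 3′, and the first set gives the first 30 coding bases with the start codon in capitals.
CIC-204: ATGaagccaatgaagaaggcatgcactggc
CIC-207: ATGtattcggcccacaggcccctgatgccc
ERF-201: ATGaagaccccggcggacacagggtttgcc
ERF-202: ATGaattacgacaagctgagccgggccctg
CIC-201 opens with the same 30 coding bases as CIC-207. Its coding sequence holds 4818 bases and that of CIC-207 holds 4824, with 6 bases that CIC-201 lacks. CIC-204, with 21 exons at chr19:42268537-42295796, has 7542 coding bases, of which the first 2794 are not in the short forms. CIC-207, with 20 exons at chr19:42284665-42295797, opens with 67 coding bases that CIC-201 also has and CIC-204 lacks. The long and short forms join at the stretch below, where capitals mark the sequence that both carry.
CIC-204 coding bases 2780 to 2809: gccggcctggaacagTGTGGACGAATGTGG
CIC-207 coding bases 53 to 82: gcctcggcatgttcgTGTGGACGAATGTGG
From there on 4748 coding bases are shared, 98.4% of CIC-207 and 63.0% of CIC-204. For *ERF*, the start codon of ERF-202 is an internal codon of ERF-201, shown in capitals.
ERF-201 coding bases 211 to 240: aagtgcaagccccagATGaattacgacaag
ERF-202 thus lacks 225 coding bases, or 75 codons, at the amino end. Its start lies within the stretch that encodes the ETS domain, so it holds only part of the DNA-binding domain. Its other 1419 coding bases are all in ERF-201.

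The shared sequence limits how reads can be divided between transcripts. Counted as 31-base words found in no other annotated transcript, ATXN1L-201 was 96.8% and ETV3-202 91.6% its own. CIC-204 had 29.9% and ERF-201 22.9%, but CIC-201 had 10.6%, ERF-202 4.80% and CIC-207 1.12%. ATXN1-201 and ATXN1-202, which encode the same protein, had none, nor had CIC-205, CIC-209 and ATXN1-208. Values of these transcripts therefore rest on how kallisto, the program whose output format the tables have, shared out common reads. Of the 32 transcripts, 20 passed the filter on low counts and were tested, and 12 were not. ATXN1-205 and ATXN1-207 had 0 counts in all 8 libraries, which allows up to 0.154 CPM (counts scaled to library size) at the lowest depth, for counting error only.

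**Figure D1:**
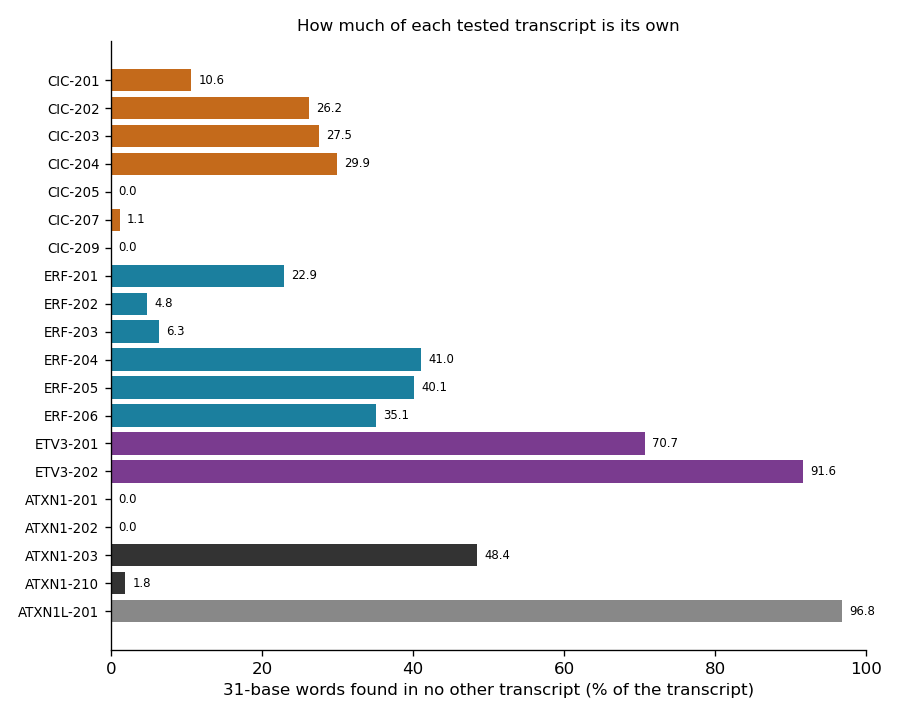
Share of each tested transcript's 31-base words that occur in no other annotated transcript (horizontal axis, %), by transcript and coloured by gene. *ETV3* and *ATXN1L* have a main transcript that is over 90% its own, whereas CIC-207 has 1.12% and the coding *ATXN1* transcripts have 0.

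*ERF* was the member that differed most between the groups. Its summed level was 55.9 CPM in both WT libraries, 81.2 and 77.8 CPM in labelled ERF KD, 18.8 and 11.7 CPM in labelled CIC KO, and 11.6 and 10.4 CPM in CIC-ERF codeletion. All 4 libraries of the last 2 groups lay below the WT libraries, and both labelled ERF KD libraries lay above. In bulk RNA, fewer cells with a transcript and less of it per cell cannot be told apart. In CIC-ERF codeletion *ERF* fell to 0.197 of WT (log2 fold change -2.34 ± 0.22 SE, adjusted p = 0.0157, quasi-likelihood test of edgeR, adjusted by Benjamini-Hochberg over 14653 genes). It was the only 1 of the 5 member genes to pass there, where 0.0682% of all genes passed. The call was lost without WT replicate A (adjusted p = 0.0938) or B (0.158) and without codeletion replicate A (0.227) or B (0.124) in the same edgeR test, while the log2 fold change stayed between -2.43 and -2.26 over all libraries left out.

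In labelled CIC KO *ERF* was at 0.273 of WT (log2 fold change -1.87 ± 0.21 SE), with an unadjusted p of 1.69e-05 and an adjusted p of 0.248 in the edgeR test, in which 0% of all genes and 0 of 5 members passed, and 4.01% of all genes had an unadjusted p under 0.05. With the replicate letter as a block the adjusted p was 0.0477, and *ERF* was then the 1 gene of 14653 that passed. DESeq2 also called *ERF* there, with an adjusted p of 3.58e-11. Without labelled CIC KO replicate A the adjusted p was 0.0466, at a log2 fold change of -2.25, and without replicate B it was 0.204, at -1.57, in edgeR. In labelled ERF KD the gene was at 1.42 times WT (log2 fold change 0.51 ± 0.20 SE, adjusted p = 0.161, edgeR), and 0 of 5 members passed where 10.1% of all genes did. *ERF* was the 1 member with an unadjusted p under 0.05 in that comparison, beside 24.8% of all genes, and DESeq2 also called 0 of the 5.

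The 2 single-loss groups were set against each other, which tests their difference itself. *ERF* was 5.21 times as high in labelled ERF KD as in labelled CIC KO (log2 fold change 2.38 ± 0.21 SE, adjusted p = 0.000393, edgeR), and was the 1 member of 5 that passed, beside 9.4% of all genes. In CIC-ERF codeletion it was at 0.139 of labelled ERF KD (log2 fold change -2.85 ± 0.22 SE, adjusted p = 0.000172, edgeR), where 11.7% of all genes and 2 of 5 members passed. Codeletion against labelled CIC KO gave -0.47 ± 0.21 SE on the log2 scale (adjusted p = 0.613, edgeR), and 0 of 5 members and 0% of all genes passed there. At an unadjusted p under 0.05 were *CIC* and *ATXN1*, 2 of the 5, beside 8.3% of all genes, and DESeq2 called *CIC*.

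ERF-201, which encodes the whole protein, separated all 4 groups. It was at 21.2 and 20.6 TPM in WT, 33.2 and 26.6 TPM in labelled ERF KD, 5.45 and 3.70 TPM in labelled CIC KO, and 3.38 and 2.08 TPM in CIC-ERF codeletion. No library of one group lay within the range of another group, and the order was the same as for the gene sum. ERF-201 was lower in codeletion than in labelled ERF KD (log2 fold change -3.44 ± 0.28 SE, adjusted p = 0.00877, edgeR over 67599 transcripts), the 1 member transcript of 20 that passed, beside 0.528% of all transcripts. It was higher in labelled ERF KD than in labelled CIC KO (log2 fold change 2.72 ± 0.27 SE, adjusted p = 0.0166, edgeR), again the 1 member transcript of 20, beside 0.476%. The first call was lost without labelled ERF KD replicate B (adjusted p = 0.0510) or codeletion replicate B (0.0541) in the edgeR test. The second was lost without either WT library, either labelled ERF KD library or either labelled CIC KO library (adjusted p between 0.0588 and 0.108, edgeR). When only the 2 groups compared entered the fit, the adjusted p was 0.129 for the first and 0.115 for the second.

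Against WT no member transcript passed in any of the 3 groups in the edgeR test, beside 0.438% of all transcripts in labelled ERF KD and 0% in each of the other groups. At an unadjusted p under 0.05 there were 1, 4 and 7 of 20 member transcripts in labelled ERF KD, labelled CIC KO and codeletion, beside 10.3%, 3.24% and 6.15% of all transcripts. DESeq2 called 0, 1 and 2 of them, and no share over all transcripts is given for it. Over all genes DESeq2 called 2057, 26 and 444 in the same comparisons, where edgeR called 1477, 0 and 10. The log2 fold change of ERF-201 against WT was -2.13 ± 0.26 (SE) in labelled CIC KO and -2.85 ± 0.27 (SE) in codeletion, with unadjusted p of 0.000115 and 2.29e-05 in the edgeR test.

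The amino-terminally shorter ERF-202 was at 8.59 and 7.30 TPM in WT, 10.5 and 12.2 TPM in labelled ERF KD, 4.27 and 1.92 TPM in labelled CIC KO, and 2.99 and 3.14 TPM in codeletion. Both groups with low *ERF* lay below WT without overlap, but by less than ERF-201: the log2 fold change in codeletion against WT was -1.28 ± 0.36 (SE, adjusted p = 0.769, edgeR). Its share of the summed TPM of ERF-201 and ERF-202 was 28.8% and 26.2% in WT, 24.1% and 31.5% in labelled ERF KD, 43.9% and 34.2% in labelled CIC KO, and 46.9% and 60.2% in codeletion. The codeletion shares lay above all others and the labelled CIC KO shares lay above WT and labelled ERF KD. Relative to the other *ERF* transcripts ERF-202 was 1.48 ± 0.37 (SE) higher on the log2 scale in codeletion than in WT, with an unadjusted p of 0.00561 and an adjusted p of 0.953 when the counts of the other transcripts served as the offset in edgeR. That test called 0 of 55624 transcripts. The difference is therefore a description of 2 libraries a group, and ERF-202 has few words of its own.

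ERF-203, a short coding transcript with the start codon of ERF-202, was at 14.5 and 6.23 TPM in WT, 5.98 and 13.4 TPM in labelled ERF KD, 1.41 and 3.49 TPM in labelled CIC KO, and 1.47 and 1.17 TPM in codeletion. WT and labelled ERF KD overlapped, as did labelled CIC KO and codeletion, and the first pair of groups lay above the second. These values rest on 28.1 to 69.6 estimated counts in the first pair and 5.21 to 16.5 in the second, and 6.29% of the words of ERF-203 are its own. The non-coding ERF-205, of 227 bases, had between 3 and 12 estimated counts in each library. It made up 0.177% to 2.72% of the *ERF* counts but 7.74% to 49.1% of the *ERF* TPM, so that the gene sum in TPM moved with it. With ERF-205 included, *ERF* was at 69.4 and 60.5 TPM in WT, 67.9 and 88.7 TPM in labelled ERF KD, 36.4 and 16.4 TPM in labelled CIC KO, and 19.3 and 16.9 TPM in codeletion. On this scale labelled ERF KD overlapped WT, and labelled CIC KO overlapped codeletion. ERF-201 and ERF-202 alone summed to 29.8 and 27.9 TPM in WT, 43.8 and 38.8 TPM in labelled ERF KD, 9.72 and 5.62 TPM in labelled CIC KO, and 6.37 and 5.22 TPM in codeletion. On the log2(TPM + 1) scale the gene sum was lower in codeletion than in WT by -1.79 ± 0.32 (SE, adjusted p = 0.115, limma), so the call was not made on that scale. The other *ERF* transcripts, ERF-204, ERF-206 and ERF-207, ranged from 0 to 9.11 TPM.

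**Figure D2:**
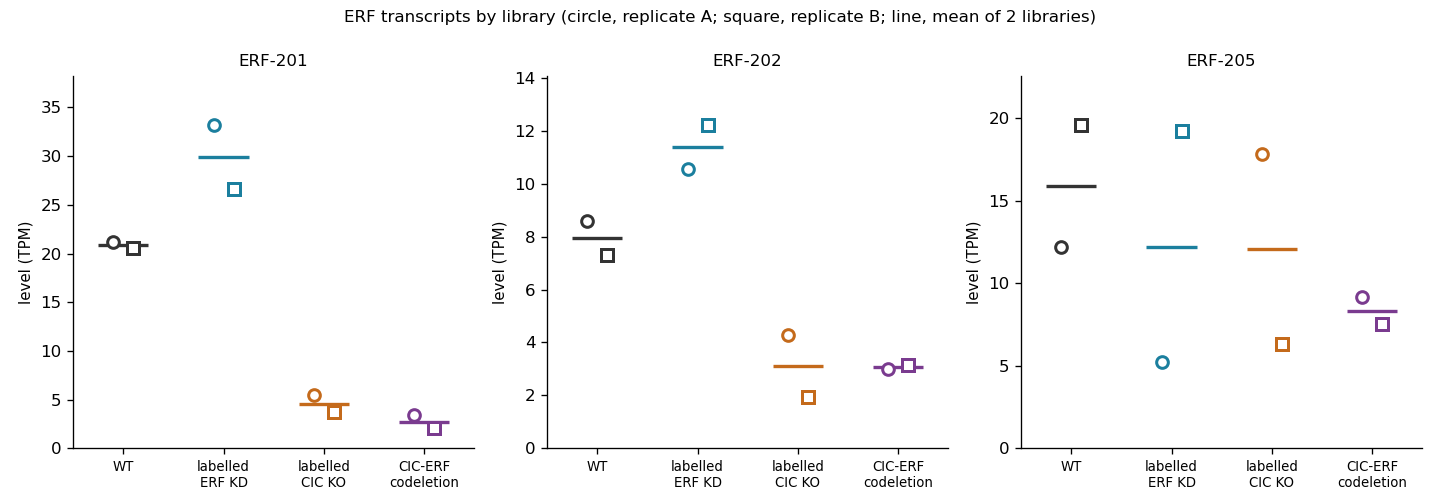
Level in TPM (vertical axis) of ERF-201, ERF-202 and ERF-205 in each library, by group; circles are replicate A, squares replicate B and lines the mean of the 2. ERF-201 runs from 2.08 to 33.2 TPM with the 4 groups apart, ERF-202 follows it over a narrower range, and ERF-205 overlaps between groups.

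*CIC* mRNA was not lowered in the libraries labelled CIC KO. The gene sum was 128 and 129 CPM in WT, 108 and 109 CPM in labelled ERF KD, 132 and 131 CPM in labelled CIC KO, and 90.9 and 66.4 CPM in CIC-ERF codeletion. The 2 codeletion libraries were the lowest and the labelled ERF KD libraries came next, both groups lying below all WT and labelled CIC KO libraries. A Cas9 edit can leave the mRNA level as it was, so this level does not check the label. In codeletion *CIC* was at 0.611 of WT (log2 fold change -0.71 ± 0.16 SE), with an adjusted p of 0.122 in the edgeR test. With the replicate letter as a block it was 0.0399, and DESeq2 gave 0.00606. Against labelled ERF KD the adjusted p was 0.0950 (log2 fold change -0.47 ± 0.16 SE, edgeR), 0.0428 with the block, and 0.0397 without codeletion replicate A, when the log2 fold change was -0.71. Without codeletion replicate B these were 0.329 and -0.26. In labelled ERF KD *CIC* was at 0.844 of WT (log2 fold change -0.24 ± 0.16 SE, adjusted p = 0.384, edgeR), and in labelled CIC KO at 1.02 (0.03 ± 0.16 SE, adjusted p = 1.0, edgeR).

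Of the *CIC* transcripts, the short form CIC-207 had the highest level. It was at 15.5 and 14.6 TPM in WT, 13.9 and 13.4 TPM in labelled ERF KD, 15.3 and 13.9 TPM in labelled CIC KO, and 10.9 and 7.24 TPM in codeletion. The other short form, CIC-201, was between 2.61 and 5.34 TPM and overlapped between all groups. The long form CIC-204 was at 6.69 and 7.10 TPM in WT, 4.74 and 4.79 TPM in labelled ERF KD, 6.94 and 6.55 TPM in labelled CIC KO, and 4.15 and 2.53 TPM in codeletion. It was thus lower in both libraries of labelled ERF KD and of codeletion than in the other 4 libraries, and lowest in codeletion. CIC-203, which holds the first coding part of the long form alone, was at 7.41 and 8.30 TPM in WT, 8.05 and 5.37 TPM in labelled ERF KD, 8.90 and 8.21 TPM in labelled CIC KO, and 3.49 and 2.66 TPM in codeletion. It was lowest in codeletion, while labelled ERF KD overlapped WT.

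None of these transcript differences passed the correction in edgeR. In codeletion against WT the log2 fold change was -0.97 ± 0.23 (SE, adjusted p = 0.675) for CIC-204, -1.27 ± 0.44 (SE, adjusted p = 0.805) for CIC-203, -0.65 ± 0.19 (SE, adjusted p = 0.777) for CIC-207 and -0.16 ± 0.32 (SE, adjusted p = 0.987) for CIC-201 in this edgeR test. When CIC-204 and CIC-203 were summed as long, and CIC-201 and CIC-207 as short, before the same fit, the values were -0.99 ± 0.23 (SE, adjusted p = 0.638) for long and -0.52 ± 0.18 (SE, adjusted p = 0.806) for short. In labelled ERF KD against WT they were -0.44 ± 0.23 (SE, adjusted p = 0.579) and -0.06 ± 0.18 (SE, adjusted p = 0.970). CIC-205 and CIC-209, which cover the 3′ end of *CIC* only, have no word of their own and ranged from 0 to 7.12 TPM.

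The ratio of long to short *CIC* was taken in each library as the TPM of CIC-204 over the summed TPM of CIC-201 and CIC-207. It was 0.321 and 0.413 in WT, 0.266 and 0.289 in labelled ERF KD, 0.349 and 0.375 in labelled CIC KO, and 0.281 and 0.252 in codeletion. With CIC-204 alone as the long form, the 4 libraries of labelled ERF KD and codeletion lay below those of WT and labelled CIC KO. The means were 0.367 ± 0.0649 (SD, n = 2) in WT, 0.277 ± 0.0163 in labelled ERF KD, 0.362 ± 0.0186 in labelled CIC KO and 0.266 ± 0.0200 in codeletion. As a difference of mean log2 ratio from WT, labelled ERF KD was at -0.40 and codeletion at -0.45, and these moved to between -0.58 and -0.21 and between -0.63 and -0.27 with 1 library left out. An exact permutation test over all 105 ways to split the 8 libraries into 4 pairs, added after seeing the data, gave p = 0.0952 for a difference of the log2 ratio between the 4 groups (non-directional; the smallest p it can give is 0.00952). Any 2 groups alone cannot give an exact 2-sided permutation p below 0.333. By counts relative to the rest of the gene (edgeR with an offset), long *CIC* had a log2 difference from WT of -0.49 ± 0.22 (SE, adjusted p = 0.953) in codeletion and of -0.37 ± 0.22 (SE, adjusted p = 0.901) in labelled ERF KD. The separation of the ratios is thus a description that none of these tests called. For labelled ERF KD in TPM it also rests on leaving out CIC-203, which is 601 bases long and had 47.0 estimated counts in replicate A. With CIC-203 added, long and short *CIC* were at 14.1 and 20.8 TPM in WT replicate A. In labelled ERF KD replicate A they were at 12.8 and 17.8 TPM, a higher ratio than in that WT library. Both codeletion libraries still lay below all WT and labelled CIC KO libraries by this sum. By estimated counts with CIC-203 added, both labelled ERF KD libraries also had a lower long to short ratio than all WT and labelled CIC KO libraries. The nearest were WT replicate A, with 871 long and 1748 short counts, and labelled ERF KD replicate B, with 657 and 1459.

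**Figure D3:**
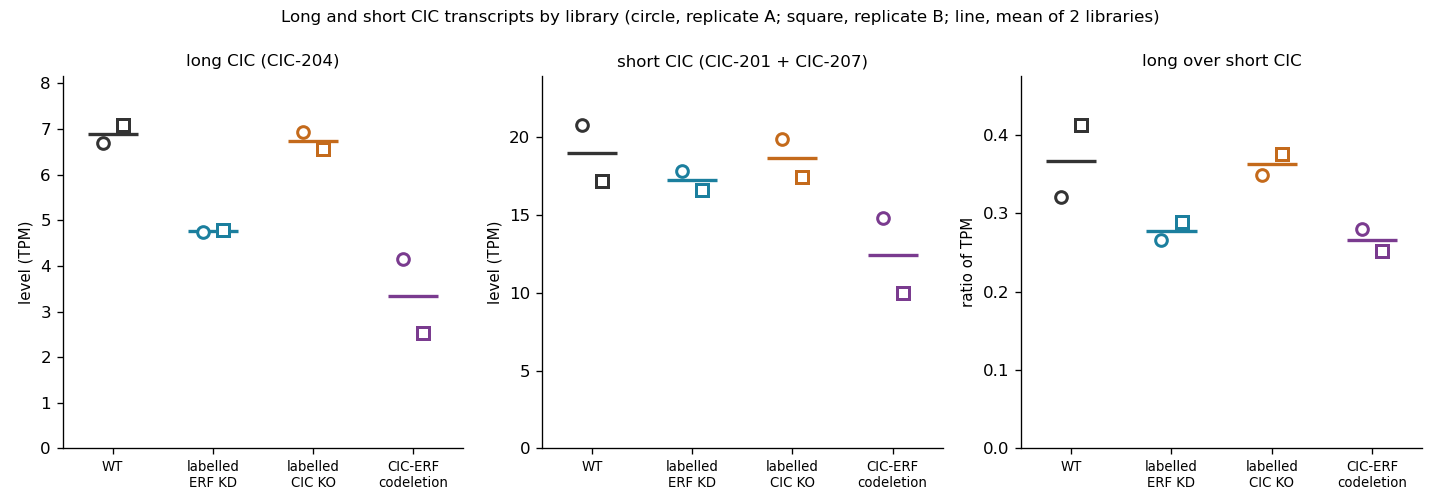
TPM of long *CIC* (CIC-204), summed TPM of short *CIC* (CIC-201 and CIC-207) and their ratio (vertical axes) in each library, by group; circles are replicate A, squares replicate B and lines the mean of the 2. Long *CIC* and the ratio are lower in labelled ERF KD and codeletion (ratio 0.252 to 0.289) than in WT and labelled CIC KO (0.321 to 0.413). With CIC-203 added to the long form in TPM, the ratios of labelled ERF KD and WT overlap, and codeletion stays apart from WT and labelled CIC KO.

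Of the 2 CIC cofactors, *ATXN1* was highest in the codeletion group. Its gene sum was 31.2 and 28.6 CPM in WT, 31.9 and 27.7 CPM in labelled ERF KD, 37.0 and 34.0 CPM in labelled CIC KO, and 49.1 and 47.0 CPM in codeletion. Both codeletion libraries lay above all others, labelled CIC KO lay above WT and labelled ERF KD, and those 2 overlapped. *ATXN1* rose 1.61-fold in codeletion against labelled ERF KD (log2 fold change 0.69 ± 0.14 SE, adjusted p = 0.0164, edgeR). That call was lost without labelled ERF KD replicate B (adjusted p = 0.0881), without codeletion replicate A (0.0920) or B (0.0568), and with only the 2 groups in the fit (0.0505) in edgeR. On the log2(TPM + 1) scale the difference was 0.33 ± 0.21 (SE, adjusted p = 0.426, limma), and labelled ERF KD against WT, at -0.00 in the count fit, was also 0.33 ± 0.21 (SE, adjusted p = 0.420, limma). Against WT the log2 fold change was also 0.69 ± 0.14 (SE), with an adjusted p of 0.102 in edgeR, 0.0276 with the replicate letter as a block and 0.0104 by DESeq2. In labelled CIC KO it was 0.25 ± 0.14 (SE, adjusted p = 1.0) and in labelled ERF KD -0.00 ± 0.14 (SE, adjusted p = 0.995) against WT in the edgeR test.

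The coding transcripts of *ATXN1*, at chr6:16299112-16761490, could be valued only together. ATXN1-201 and ATXN1-202 summed to 4.11 and 3.17 TPM in WT, 3.81 and 2.95 TPM in labelled ERF KD, 4.57 and 3.64 TPM in labelled CIC KO, and 6.22 and 5.27 TPM in codeletion. The codeletion libraries were again above all others, and the other 3 groups overlapped. Summed before the fit, the coding transcripts were 0.75 ± 0.18 (SE, adjusted p = 0.695, edgeR) higher on the log2 scale in codeletion than in WT, and the non-coding ones 0.58 ± 0.36 (SE, adjusted p = 0.851, edgeR). Among the non-coding transcripts ATXN1-210 was at 0.773 and 0.432 TPM in WT and between 1.52 and 2.19 TPM in the other 6 libraries. The WT values rest on 14.6 and 8.19 estimated counts of ATXN1-210. It has 1.79% of words of its own, and its log2 fold change in labelled ERF KD was 1.88 ± 0.52 (SE, adjusted p = 0.265, edgeR).

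*ATXN1L* passed in no comparison in the edgeR test. Its gene sum was 88.9 and 80.7 CPM in WT, 75.6 and 66.7 CPM in labelled ERF KD, 75.0 and 71.3 CPM in labelled CIC KO, and 88.5 and 67.7 CPM in codeletion. All 4 single-loss libraries lay below both WT libraries, and the codeletion libraries, at 88.5 and 67.7 CPM, lay far apart. Log2 fold changes against WT were -0.25 ± 0.16 (SE), -0.21 ± 0.16 (SE) and -0.12 ± 0.16 (SE) in labelled ERF KD, labelled CIC KO and codeletion, with adjusted p of 0.371, 1.0 and 0.776 in edgeR. ATXN1L-201 took 99.6% to 99.8% of the gene's counts. Of the exonic bases of *ATXN1L*, 193 are shared with *IST1* on the same strand and with *ZNF821* on the other.

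*ETV3*, the paralog of *ERF*, also passed in no comparison in the edgeR test. Its gene sum was 48.0 and 45.96 CPM in WT, 46.4 and 43.5 CPM in labelled ERF KD, 50.4 and 49.4 CPM in labelled CIC KO, and 60.2 and 49.0 CPM in codeletion. The highest library was codeletion replicate A, while codeletion replicate B lay within the range of the other groups. The log2 fold change in codeletion against WT was 0.22 ± 0.14 (SE, adjusted p = 0.531, edgeR), and in the 2 groups labelled for single loss -0.06 ± 0.14 and 0.09 ± 0.14 (SE, adjusted p = 0.822 and 1.0, edgeR). ETV3-202, at chr1:157121191-157138367, held 76.6% to 87.7% of the gene's TPM, between 10.96 and 16.7 TPM. The shorter coding ETV3-201, between 1.501 and 3.34 TPM, shares its start codon and first 402 coding bases with it.

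**Figure D4:**
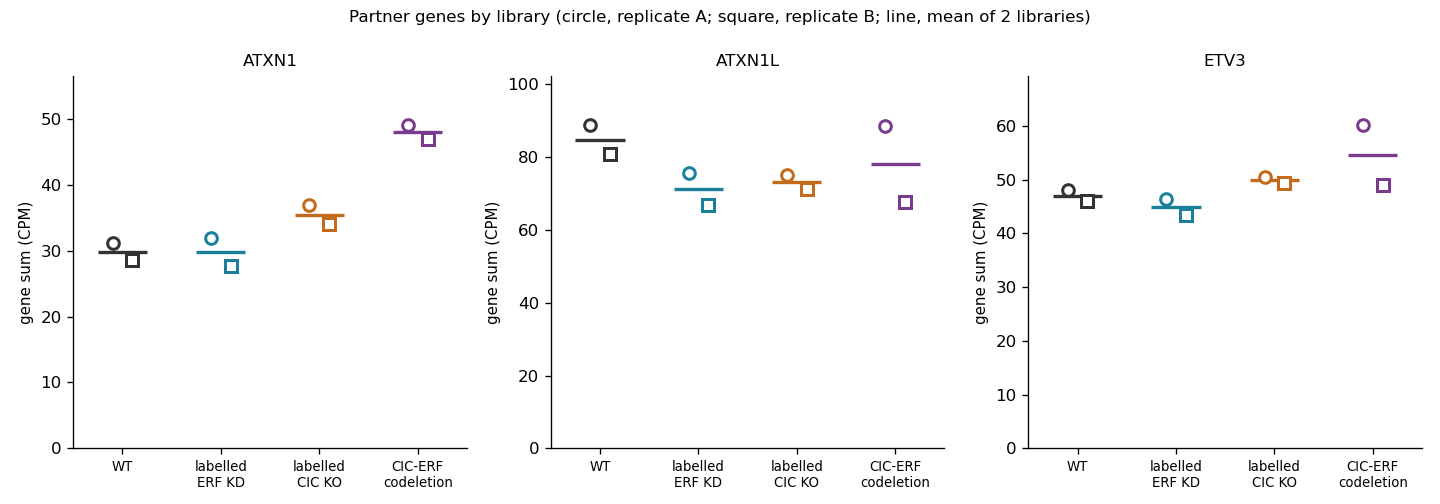
Gene sums in CPM (vertical axis) of *ATXN1*, *ATXN1L* and *ETV3* in each library, by group; circles are replicate A, squares replicate B and lines the mean of the 2. *ATXN1* is at 47.0 to 49.1 CPM in codeletion and at 27.7 to 37.0 CPM elsewhere, whereas *ATXN1L* overlaps between codeletion and WT, and *ETV3* between codeletion and labelled CIC KO.

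The interaction term asks whether the codeletion group departed from the sum of the 2 single-loss differences. It was -0.98 ± 0.29 (SE) on the log2 scale for *ERF*, with an adjusted p of 0.124 in edgeR, 0.0436 with the block and 0.0278 without labelled CIC KO replicate B, when it was -1.28. Without labelled CIC KO replicate A it was -0.60, with an adjusted p of 0.209 in edgeR. For *CIC* it was -0.50 ± 0.22 (SE, adjusted p = 0.293), for *ATXN1* 0.44 ± 0.20 (SE, adjusted p = 0.298), for *ATXN1L* 0.35 ± 0.22 (SE, adjusted p = 0.497) and for *ETV3* 0.19 ± 0.20 (SE, adjusted p = 0.707) in the edgeR test. Thus 0 of 5 members passed, beside 4.15% of all genes, and 1 had an unadjusted p under 0.05, beside 17.5%. DESeq2 called *ERF*, beside 1112 of 14368 genes. Over the 20 member transcripts the median log2 fold change in codeletion against WT was -0.53, with 15 lower and 5 higher. Over all 67599 transcripts the median was -0.05, and the share of them that was lower is not given. The lower ones include all 7 tested *CIC* and all 6 tested *ERF* transcripts. Transcripts of a gene share reads, so these are not separate observations and largely repeat the 2 gene sums.

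**Figure D5:**
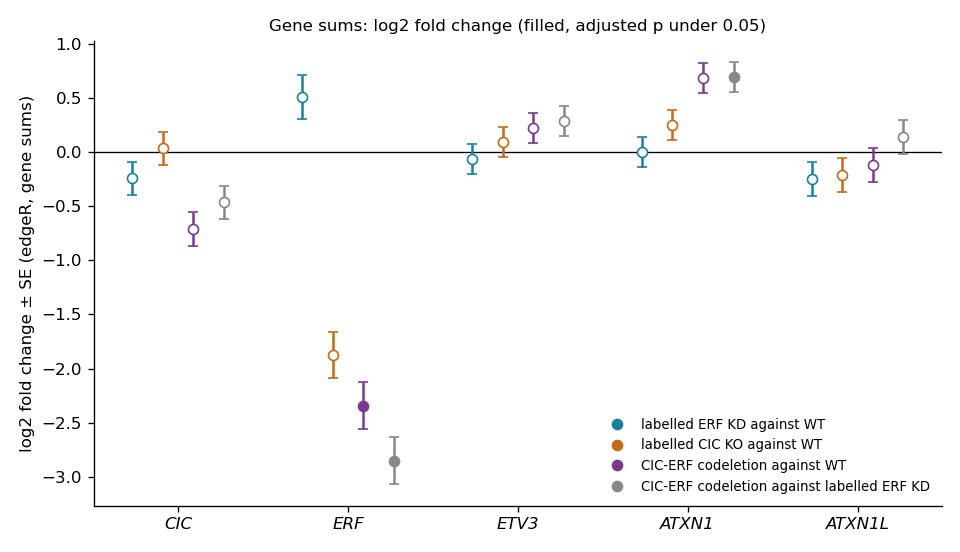
Log2 fold change with its SE (vertical axis, edgeR on gene sums) of the 5 genes in 4 comparisons given by colour; filled points have an adjusted p under 0.05. *ERF* is at -2.34 and -2.85 in the comparisons of codeletion with WT and with labelled ERF KD, and *ATXN1* at 0.69 in the latter.

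Usage of single transcripts within a gene was also tested with edgeR's diffSpliceDGE. It called 0 of the 19 member transcripts tested in each of 4 comparisons, beside 0.237% of all transcripts in labelled ERF KD, 0.165% in labelled CIC KO and 0.1% in codeletion against WT, and 0.227% in labelled ERF KD against labelled CIC KO. No member transcript had an unadjusted p under 0.05 there, beside 4.36%, 3.94%, 4.16% and 4.37% of all transcripts in the same order. The edgeR fit with an offset called 0% of all transcripts in each. In codeletion against WT the usage difference was 1.01 for ERF-202 (unadjusted p = 0.0940) and -0.56 for ERF-201 (unadjusted p = 0.159) on the log2 scale in this edgeR test. On simulated counts for codeletion against WT this test recovered 19% of 100 transcripts changed by 3 on the log2 scale and 1% of those changed by 1.5, among 52334 transcripts. A shift in usage of the size seen for ERF-202 was therefore below what this test could reliably detect with 2 libraries a group. The simulated counts also gave 53 false calls, beside 57 calls over all transcripts in the real libraries for this comparison. The shares of all transcripts called by diffSpliceDGE may thus hold many false calls.

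The gene lists in this and the next paragraphs were chosen with earlier results of these data known, so their counts are descriptions. Genes held to act on these repressors or their partners formed the first list. Most of its 20 genes encode kinases, nuclear transport factors, 14-3-3 proteins or corepressors. The list had 1 member higher and 2 lower in labelled ERF KD against WT, beside 4.01% of all genes higher and 6.07% lower. Its median log2 fold change was 0.08, against 0.01 over all genes. *SFN*, a 14-3-3 protein of epithelial cells, fell by 1.28 on the log2 scale (± 0.22 SE, adjusted p = 0.00945, edgeR), and *HDAC1*, a histone deacetylase, fell by 0.47 (± 0.12 SE, adjusted p = 0.0460, edgeR). *SFN* was low in the libraries in which the summed epithelial markers were low (1648 to 2020 TPM against 3719 to 4573), and their part in this result was not tested. In labelled CIC KO and in codeletion the lowest adjusted p over the 20 against WT was 1.0 and 0.142 in edgeR, with medians of 0.07 and 0.15. The medians over all genes were 0.012 and 0.0018.

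Of the other ETS repressors, *ETV7* fell by 2.78 on the log2 scale in labelled ERF KD against WT (± 0.68 SE, adjusted p = 0.0388, edgeR). It was at 5.56 ± 0.337 TPM (SD, n = 2) in WT and 0.761 ± 0.437 TPM in labelled ERF KD, and it was the 1 of 2 tested that passed, beside 6.07% of all genes lower. *ETV6* had a log2 fold change of -0.40 there, and *ETV3L* had 0 counts in every library (both named after their values were seen). The adjusted p of *ETV7* against WT was 1.0 in labelled CIC KO and 0.704 in codeletion in the edgeR test.

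Of 10 genes known as repressed by CIC, 5 were higher in labelled ERF KD against WT and none was lower, beside 4.01% of all genes higher, and the list's median log2 fold change was 0.98. These were *ETV1* (log2 fold change 2.38 ± 0.20 SE, adjusted p = 0.000300), *ETV5* (1.95 ± 0.20 SE, 0.000718), *ETV4* (1.51 ± 0.21 SE, 0.00369), *SPRY2* (0.93 ± 0.16 SE, 0.00803) and *SPRED1* (0.65 ± 0.16 SE, 0.0401) in the edgeR test. In labelled CIC KO and in codeletion the lowest adjusted p over the 10 against WT was 1.0 and 0.0590 (*ETV4*) in edgeR, with medians of 0.31 and 0.64 and with 9 and 10 of the 10 above 0. The medians over all genes were 0.012 and 0.0018, and the share of all genes above 0 is not given. No gene of the list passed in either comparison. *ETV4* was at 16.6 ± 3.66 TPM (SD, n = 2) in WT, 47.0 ± 6.88 TPM in labelled ERF KD, 18.5 ± 3.78 TPM in labelled CIC KO and 48.2 ± 3.55 TPM in codeletion. *ETV1* was at 9.73 ± 3.20 TPM (SD, n = 2) in WT, 36.6 ± 13.7 TPM in labelled ERF KD, 7.93 ± 0.556 TPM in labelled CIC KO and 12.5 ± 3.12 TPM in codeletion.

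The genes most alike to each member over the 8 libraries were found by Pearson's r of log2(CPM + 1) among 10893 protein-coding genes with a mean of at least 5 CPM. They were *TRPC4*, *METRN* and *COL5A1* for *ERF* (r between 0.975 and 0.984), *SLC35A3*, *KLF11* and *TBRG1* for *CIC* (0.921 to 0.943), *CTNNA1*, *CRNKL1* and *CNOT8* for *ATXN1* (0.969 to 0.978), *SLMAP*, *ACTR3C* and *XAF1* for *ATXN1L* (0.934 to 0.939), and *FOXJ3* and *INF2* for *ETV3* (0.965 to 0.974). Among the members themselves r ran from -0.83 for *ERF* and *ATXN1* to 0.82 for *ETV3* and *ATXN1*. These describe 8 libraries that fall into 4 groups and are not tests.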

How the data were processed

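The authors deposited 1 table per library with kallisto columns, from which estimated counts and TPM of each transcript were used. The submitters' processing notes list hg19, the study's methods name another program and a gene-level log2 scale, and the kallisto version and annotation are not given in the sources used here. The estimated counts deposited by the authors were not normalized, and the deposited TPM values are scaled by transcript length and library. Transcript identifiers were matched to GENCODE 29 (GRCh38): 153245 of 180253 matched, with 93.2% to 93.3% of counts.

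The members and lists were chosen with earlier results of these data known. Counts were rounded and summed over the transcripts of a gene. edgeR 4.0.16 (R 4.3.3) quasi-likelihood tests were fitted over all 4 groups, with TMM normalization and Benjamini-Hochberg adjustment over 14653 genes or 67599 transcripts that passed filterByExpr. A call is an adjusted p under 0.05. Alternatives were DESeq2 1.42.0, limma 3.58.1 on log2(TPM + 1) and log2(TPM + 0.1), no filter, the compared groups alone, coding transcripts alone and each library left out. After seeing the data, transcript classes and an offset test of usage were added. The text names all members and, among other genes, the listed genes that passed and the 3 most alike to each member. A few genes that this rule or the marker lists cover are not reported here.

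On simulated counts for CIC-ERF codeletion against WT, 89% of 100 genes changed by 1.5 on the log2 scale and 100% of those changed by 3 were recovered among 14418 genes, and 15% and 65% of transcripts among 62486. Samples with the same letter deviated together in each of the 6 pairs of groups (r between 0.242 and 0.493 over genes), so the letters meet the bar set for pairing. All values reported are from the fit without the letter as a block unless the block is named. Whether counting used strand is not stated, and *ERF* shares 155 exonic bases with AC006486.1.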

Additional observations from a re-analysis of the deposited data

Results flagged for a closer look

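Leaving out comparisons with WT, 5 differences between groups passed a test of the difference itself. *ERF* had a log2 fold change of 2.38 between labelled ERF KD and labelled CIC KO and of -2.85 between CIC-ERF codeletion and labelled ERF KD. ERF-201 had log2 fold changes of 2.72 and -3.44 in the same comparisons. *ATXN1* had a log2 fold change of 0.69 between CIC-ERF codeletion and labelled ERF KD. The direction of each follows the labels, which the *ERF* level goes against.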

How the results depend on the processing

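Among the 5 genes, 3 passed in codeletion against WT (1 in the count fit reported) and 1 each in labelled CIC KO against WT and the interaction (0 reported) under DESeq2, with no filter and with the replicate block. DESeq2 and no filter also gave 1 in codeletion against labelled CIC KO (0 reported). limma with either pseudocount gave 0 in codeletion against WT and 1 in codeletion against labelled ERF KD (2 reported). Fitting only the groups compared also gave 1 in codeletion against labelled ERF KD. Among the 20 transcripts, DESeq2 gave 1 in labelled CIC KO against WT, 2 in codeletion against WT, 2 against labelled ERF KD, 1 against labelled CIC KO, and 2 in labelled ERF KD against labelled CIC KO. Without a filter these were 1 in labelled CIC KO against WT, 1 in codeletion against WT and 2 in labelled ERF KD against labelled CIC KO, and with only the groups compared both reported calls became 0. The cause was not tested. For these transcript counts no share over all transcripts is given, so they describe the settings and not the members.

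With the replicate block, pairing libraries by letter, the calls of *ERF* in labelled CIC KO against WT (-1.89), of *CIC* (-0.72) and *ATXN1* (0.69) in codeletion against WT, of *CIC* in codeletion against labelled ERF KD (-0.47) and of *ERF* in the interaction (-0.96) were gained, and *ERF* in codeletion against WT was at -2.35.

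Over all genes, codeletion against WT had 10 calls, and 444 under DESeq2, 768 with no filter and 365 with the block. Labelled CIC KO against WT had 0, and 26, 123 and 1. Codeletion against labelled CIC KO had 0, and 146, 426 and 49. Labelled ERF KD against WT had 1477 and 2671 with the block. The interaction had 608, and 1112 of 14368 under DESeq2, 1645 of 22195 with no filter and 1400 of 14653 with the block. Codeletion against labelled ERF KD had 1709, and 3014 with the block and 1219 with only the groups compared. Under limma with a pseudocount of 1 and of 0.1 it had 1113 and 1186, and codeletion against WT had 1 and 7.

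With 1 library left out, the gene counts ran from 0 to 1 in labelled CIC KO against WT, in codeletion against WT and in the interaction, and from 1 to 2 in codeletion against labelled ERF KD. The transcript counts ran from 0 to 1 in codeletion against labelled ERF KD and in labelled ERF KD against labelled CIC KO. In the 3 comparisons with WT, the usage result of ATXN1-201 depended on which WT library was left out. This transcript has no word of its own, and it was given 2.27e-07 estimated counts in WT replicate A and 116 in WT replicate B.

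Signs that turned were those of small differences. limma with a pseudocount of 1 and of 0.1 gave -0.0139 and -0.0150 for *ETV3* in labelled CIC KO against WT, 0.33 and 0.37 for *ATXN1* in labelled ERF KD against WT (0.00426 with no filter), 0.0588 and 0.0648 for *ATXN1* in labelled ERF KD against labelled CIC KO, and -0.00264 and -0.00409 for *ATXN1L* in codeletion against labelled CIC KO. With 1 library left out, *ETV3* in codeletion against labelled CIC KO ran from -0.0271 to 0.27 and *ATXN1* in labelled ERF KD against WT from -0.11 to 0.10. *ATXN1L* ran from -0.33 to 0.0647 in codeletion against WT, from -0.0686 to 0.32 against labelled ERF KD, from -0.11 to 0.28 against labelled CIC KO, and from -0.13 to 0.0497 between the single-loss groups. In codeletion against WT, CIC-201 ran from -0.52 to 0.34 and ATXN1L-201 from -0.29 to 0.13.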
